A study of Rattus norvegicus with 62 samples.

Results

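Ganglia of the injured side were compared with ganglia of the opposite side of the same female rats 1 week after chronic constriction injury (CCI), taking every expressed gene of 14 of the 62 libraries in the series. The members were chosen by label alone: 7 libraries of the ipsilateral, injured side (F 1W IL) and 7 of the contralateral side (F 1W CL), replicates 1 to 7 in each. Each library came from an L4 (lumbar) dorsal root ganglion that had been snap frozen, and both sides of one replicate number carry the same animal code. Every ganglion thus came from an injured rat: the opposite-side ganglion is not a ganglion of an unoperated animal, and no sham group is used here. Strain and age are not given in the sources used here. Further pairs of groups serve as comparisons, namely females at 5 weeks (6 injured-side and 6 opposite-side libraries) and males at 1 week (7 and 7).

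The dorsal root ganglion houses the somata of sensory neurons that serve trunk and limbs, wrapped by satellite glia and mixed with Schwann cells, vessels and resident macrophages. In the CCI model loose ligatures are tied around a peripheral nerve, so that many axons are cut off from their target while their cell bodies survive in the ganglion. Axotomized sensory neurons are known to switch on a regeneration programme led by transcription factors such as Atf3, to exchange their neuropeptides, and to lower many of the channels and receptors that set their excitability, while macrophages gather around them.

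Defining markers of the labelled tissue were present. Nefh, a neurofilament heavy chain of myelinated sensory neurons, measured 3749, 4885 and 5702 CPM in injured-side ganglia, against 7177, 7603 and 7777 CPM in opposite-side ganglia (lowest, median and highest of 7; CPM, counts relative to the scaled size of the library). Prph, the intermediate filament peripherin of small sensory neurons, measured 2400, 2468 and 2901 CPM in injured-side ganglia, against 1511, 1772 and 1866 CPM in opposite-side ganglia. Pou4f1, a transcription factor that defines sensory neurons, measured 142, 155 and 158 CPM in injured-side ganglia, against 139.8, 142 and 157 CPM in opposite-side ganglia. All 3 were present in every library. The libraries held 20.3 to 24.8 M counts on the injured side and 21.1 to 25.5 M on the opposite side, and no 2 of the 62 libraries were identical. Hemoglobin transcripts took 0.0225% ± 0.0165 of counts on the injured and 0.0308% ± 0.0128 on the opposite side (SD, n = 7 each; exact permutation test, two-sided p = 0.307).

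One property of the libraries followed the side. Genes annotated as ribosomal RNA took 0.970% ± 0.236 of counts in injured-side ganglia and 2.25% ± 0.359 in opposite-side ganglia (SD, n = 7 each). Shares ran between 0.692% and 1.42% on the injured side, against 1.69% and 2.76% on the opposite side, so the groups did not overlap, and the share was lower on the injured side in 7 of 7 animals (exact permutation test, two-sided p = 0.000583, the smallest that 7 against 7 can give). At 5 weeks the female groups averaged 2.05% ± 0.350 on the injured and 2.11% ± 0.314 on the opposite side (SD, n = 6 each), so the F 1W injured-side libraries are the ones apart among the 4 female groups. Rn28s, a 28S ribosomal RNA gene, stood among the 15 falls picked below (log2 fold change -1.47); it is not a messenger RNA. Because the shares do not overlap, a fit with the share as covariate can separate side from share only poorly: the median SE of the genes called was 0.121 with the covariate, against 0.0652 without it. Each list of genes below is given with 2 bracketed pairs of counts, rises before falls. The first pair is from the fit with that covariate, and the second from setting the injured side against F 5 week opposite-side libraries in place of the F 1 week ones. The F 5 week opposite-side libraries held 1.675% to 2.445%, above every F 1 week injured-side library as well. The second pair thus does not separate side from share either.

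**Figure D1:**
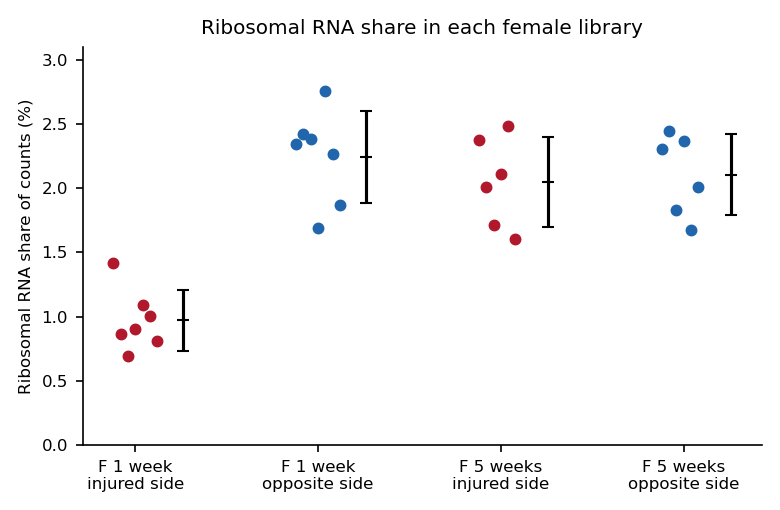
Ribosomal RNA share of counts (vertical axis, %) in each female library (points), with mean and SD (bar) beside each group of 7, 7, 6 and 6 libraries. The 7 injured-side libraries at 1 week lie between 0.692% and 1.42%, below every library of the other 3 groups.

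Of 18135 genes tested, 8284 differed between the sides (45.7%; edgeR quasi-likelihood test, Benjamini-Hochberg adjusted p under 0.05), 4341 higher (23.9%) and 3943 lower (21.7%) on the injured side. Most of these differences were small. The median size among the genes called was 0.33 on the log2 scale, 5513 of them lay under 0.5, and 689 genes were higher (3.8%) and 238 lower (1.31%) by 2-fold or more. In 7 of 7 animals 3602 genes were higher (19.9%) and 3125 lower (17.2%) on the injured side, and 3783 genes did not overlap between the groups (20.9%). The covariate left 3932 genes called (21.7%), 11% of all higher and 10.7% lower, of which 3790 were among the 8284 with the same sign. With each animal as a block 8307 of 17266 genes were called (48.1%; 24.1% higher and 24% lower), but the block and the covariate together left 76 genes higher and 1 lower. Against the F 5 week opposite side 8654 genes were called (47.7%; 26.3% higher and 21.4% lower), and 6291 of the 8284 (75.9%) were called in the same direction, while 66 were called in the opposite one. In RNA of a ganglion fewer cells of a type and less RNA per cell cannot be told apart, which holds for every group of genes below.

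Genes were ranked by log2 fold change among those called with a mean log2 CPM of at least 1 over the 14 libraries, the same sign in 7 of 7 animals and a gene symbol. Larger changes of weakly expressed or less uniform genes are not in this ranking. The 15 largest rises in it were of peptides, secreted proteins and genes hardly expressed on the opposite side. Npy, which encodes neuropeptide Y (chromosome 4, 78881294 to 78888495 of the build mRatBN7.2, as are all gene positions here), measured 281, 352 and 419 CPM in injured-side ganglia, against 0.533, 1.21 and 4.95 CPM in opposite-side ganglia. It was above every opposite-side library in all 7 injured-side libraries (log2 fold change 7.61, SE 0.343, edgeR adjusted p = 3.85e-18). Vip, the gene of vasoactive intestinal peptide (chromosome 1, 42064878 to 42073219), measured 22.4, 43.7 and 87.6 CPM in injured-side ganglia, against 0, 0.086 and 0.304 CPM in opposite-side ganglia, again without overlap (log2 fold change 8.62, SE 0.493, edgeR adjusted p = 7.46e-16). Csrp3, a LIM domain protein otherwise known from striated muscle (chromosome 1, 98528067 to 98546647), measured 24.4, 35.4 and 62.7 CPM in injured-side ganglia, against 0, 0.0821 and 0.185 CPM in opposite-side ganglia (log2 fold change 8.55, SE 0.457, edgeR adjusted p = 1.08e-16). Stac2, an adaptor of voltage-gated calcium channels (chromosome 10, 83032417 to 83048260), measured 80.5, 108 and 133 CPM in injured-side ganglia, against 0.557, 1.06 and 1.26 CPM in opposite-side ganglia (log2 fold change 6.73, SE 0.223, edgeR adjusted p = 5.11e-22). For these 4 genes every injured-side library lay above every opposite-side library. Reg3b, a secreted C-type lectin, measured 36.4, 46 and 82.7 CPM in injured-side ganglia, against 0.41, 0.982 and 1.6 CPM in opposite-side ganglia (log2 fold change 5.70, SE 0.45, edgeR adjusted p = 1.92e-12). Tgm1, a transglutaminase best known from the skin barrier, measured 36.5, 53.4 and 69.1 CPM in injured-side ganglia, against 0.862, 1.15 and 1.84 CPM in opposite-side ganglia (log2 fold change 5.45, SE 0.263, edgeR adjusted p = 9.03e-18). None of these overlapped between the sides. The remaining rises by the same rule were Ptprh (7.37), a receptor phosphatase, Hamp (7.31), the iron hormone hepcidin, Cldn4 (7.17), a tight junction claudin, and Lce1f (8.56), a cornified envelope gene.

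Serpina3n, a secreted serine protease inhibitor, rose as well, with a wide spread on both sides: 35.8, 244 and 647 CPM in injured-side ganglia, against 0.347, 3.62 and 6.16 CPM in opposite-side ganglia (log2 fold change 6.26, SE 0.771, edgeR adjusted p = 3.52e-08). The lowest injured-side library still lay above the highest opposite-side library.

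Several of these rises had almost no reads on the opposite side, and a fitted fold change is then no bound. Il24, a cytokine of the interleukin 10 family, had 75 to 258 counts in each injured-side library and 0 in all 7 opposite-side libraries; taken over the group against a floor of 3 counts it was at least 405-fold higher. Vtcn1, an inhibitory immune checkpoint ligand, had 62 to 122 counts against 0 and was at least 223-fold higher on the same footing. Sprr1a, a small proline-rich protein that promotes axon outgrowth, had 150 to 367 counts per library on the injured side. It had 1658 counts in all there against 2 on the opposite side, a ratio of 890.4 (95% exact Clopper-Pearson interval 246 to 7359). Crisp3, a cysteine-rich secretory protein, had 181 to 754 counts per library and 2848 in all on the injured side against 1 count in all, a ratio of 3059 (interval 549 to 120900). These ratios and bounds divide the summed counts of each group by its unscaled total of counts, unlike the CPM used elsewhere. Intervals and floors cover counting error only.

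In the same ranking, the 15 largest falls included receptors and channels of sensory neurons. Adra1a, the alpha-1A adrenergic receptor (chromosome 15, 40830125 to 40935902), measured 1.31, 2.27 and 3.73 CPM in injured-side ganglia, against 10.1, 12.6 and 14.5 CPM in opposite-side ganglia (log2 fold change -2.37, SE 0.175, edgeR adjusted p = 9.57e-14). Oprm1, the mu opioid receptor through which morphine acts (chromosome 1, 43160057 to 43413409), measured 1.22, 1.92 and 2.36 CPM in injured-side ganglia, against 6.82, 8.89 and 10.5 CPM in opposite-side ganglia (log2 fold change -2.29, SE 0.163, edgeR adjusted p = 2.12e-14). Kcnh7, a potassium channel of the ERG family (chromosome 3, 47329338 to 47822122), measured 27.9, 37.3 and 48.4 CPM in injured-side ganglia, against 146, 161 and 171 CPM in opposite-side ganglia (log2 fold change -2.0, SE 0.0978, edgeR adjusted p = 6.05e-18). In each case the highest injured-side library stayed below the lowest opposite-side library. Kcnb2, a delayed rectifier potassium channel (chromosome 5, 3567012 to 4028564), measured 6.51, 7.95 and 13.1 CPM in injured-side ganglia, against 27.2, 30.4 and 47.5 CPM in opposite-side ganglia (log2 fold change -1.86, SE 0.164, edgeR adjusted p = 1.36e-11). Pla2g7, a phospholipase that breaks down platelet-activating factor, measured 15.8, 20.5 and 28.6 CPM in injured-side ganglia, against 55.6, 60.3 and 70.0 CPM in opposite-side ganglia (log2 fold change -1.51, SE 0.119, edgeR adjusted p = 8.20e-13). These did not overlap either. Also among the 15 were Igsf21 (-1.65), a synaptic adhesion protein, Lancl3 (-2.27), Zfp804b (-2.16), Zbtb41 (-1.55), Plcxd3 (-1.54), Abca6 (-1.54), a lipid transporter, and Necab1 (-1.47), a calcium-binding protein whose sides overlapped (2.14 to 14.9 CPM on the injured and 13.4 to 35 CPM on the opposite side).

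The falls divided by which opposite-side libraries they were set against. Against the F 5 week opposite side Adra1a (-2.37), Pla2g7 (-1.73) and Igsf21 (-1.53) kept their size. Oprm1 fell by 0.81 on the log2 scale there, Kcnb2 by 0.74, Kcnh7 by 1.30 and Lancl3 by 1.01, each less than against their own opposite side. Ro60, which binds small noncoding RNAs, measured 4.73, 6.07 and 9.65 CPM in injured-side ganglia, against 15.2, 19.8 and 22 CPM in opposite-side ganglia, a fall of 1.59 on the log2 scale (SE 0.114, edgeR adjusted p = 3.30e-14), but differed by 0.14 (SE 0.127) from the F 5 week opposite side and was not called there. Zbtb41 likewise had -1.55 against its own and 0.14 against the F 5 week opposite side. The F 1 week and F 5 week opposite sides themselves differed for these genes: 1 week over 5 weeks, Oprm1 differed by 1.48, Kcnb2 by 1.12 and Ro60 by 1.73 on the log2 scale, with the value of Adra1a at 0.00055.

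**Figure D2:**
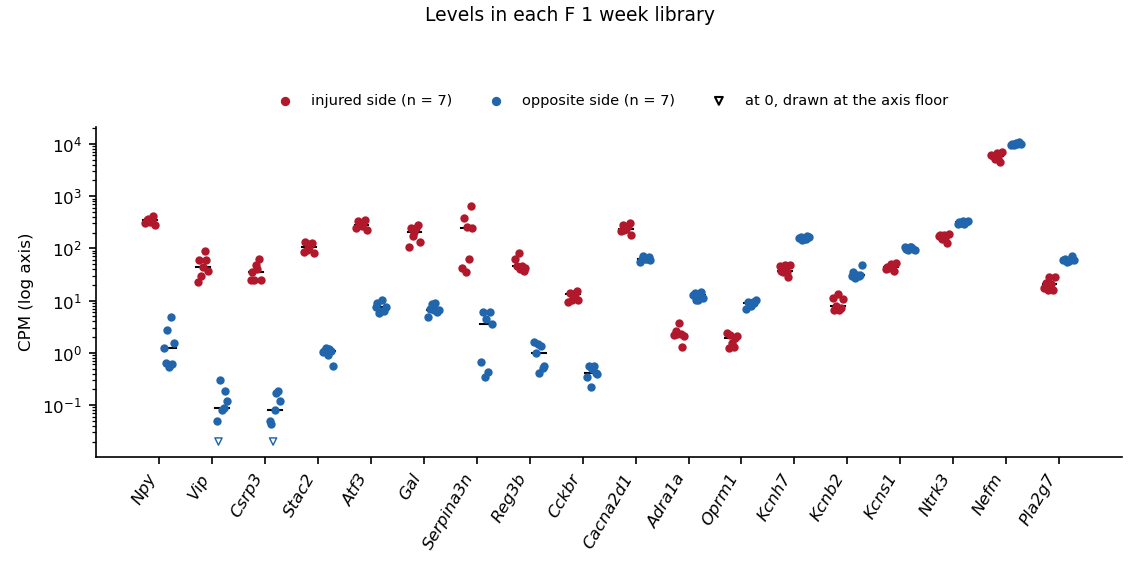
Levels (CPM, vertical log axis) of 18 genes in each F 1 week library: injured side on the left and opposite side on the right of each gene, 7 libraries each, with the median as a line and values of 0 drawn as open triangles at the floor of the axis. The first 10 genes are higher and the last 8 lower on the injured side, and the 2 clouds of points do not overlap for any of the 18.

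Transcription factors of the injury response rose in 16 of 25 and fell in 2 (covariate 14 and 1, F 5 week side 17 and 2; median log2 fold change 0.35, against 0.014 over all genes tested). None fell without animal 2 or 5, and 1 fell when any other animal was left out. Atf3, the factor most used to mark axotomized neurons, averaged 288 ± 44.6 CPM in injured-side and 7.46 ± 1.65 CPM in opposite-side ganglia (SD, n = 7 each), without overlap. Sox11, which drives axon growth in embryonic and injured sensory neurons, measured 16.4, 18.6 and 24.8 CPM in injured-side ganglia, against 1.71, 2.13 and 2.36 CPM in opposite-side ganglia (log2 fold change 3.29, SE 0.179, edgeR adjusted p = 5.39e-17). Jun, partner of Atf3 in AP-1 dimers, measured 274, 333 and 358 CPM in injured-side ganglia, against 71.4, 85.5 and 107 CPM in opposite-side ganglia (log2 fold change 1.88, SE 0.108, edgeR adjusted p = 3.86e-16). Smad1, an effector of bone morphogenetic protein signalling, rose by 1.28 (SE 0.0882) on the log2 scale, Crem, a factor of the cyclic AMP response, by 1.03 (SE 0.111), and Cebpd by 0.95 (SE 0.141). Smaller rises were those of Myc (0.89), Klf6 (0.61), Stat3 (0.37) and Klf7 (0.32). Among immediate early genes 8 of 21 rose and 3 fell (covariate 6 and 1, F 5 week side 13 and 1). Socs3, a feedback inhibitor of cytokine signalling, rose by 2.48 (SE 0.179), Fosl1, another AP-1 subunit, by 3.61 (SE 0.359) and Btg2 by 0.81 (SE 0.12). Egr1 stood at -0.079 (SE 0.156) and was not called.

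Nearly every growth and regeneration gene was higher, with 29 of 32 higher and 1 lower (covariate 28 and 1, F 5 week side 31 and 1) and a median of 1.30. The levels of Gap43, a growth cone protein, were 551, 649 and 762 CPM in injured-side ganglia, against 175, 198 and 209.6 CPM in opposite-side ganglia (log2 fold change 1.75, SE 0.0853, edgeR adjusted p = 3.85e-18). Ankrd1, a nuclear ankyrin repeat protein, measured 11.5, 13.4 and 16.6 CPM in injured-side ganglia, against 0.13, 0.344 and 0.513 CPM in opposite-side ganglia (log2 fold change 5.33, SE 0.251, edgeR adjusted p = 4.81e-19). Flrt3, an adhesion protein of growing neurites, measured 109, 144 and 182 CPM in injured-side ganglia, against 16.7, 18.3 and 19.2 CPM in opposite-side ganglia (log2 fold change 3.06, SE 0.175, edgeR adjusted p = 7.10e-16). All 3 were without overlap. Ecel1, a membrane endopeptidase, rose by 3.64 (SE 0.228), Arg1, the arginase that feeds polyamine synthesis, by 3.60 (SE 0.236), and Sema6a, a transmembrane semaphorin, by 2.97 (SE 0.159). Cytoskeletal and stress genes rose with them, Stmn4 by 2.72 (SE 0.158), Gadd45a by 2.56 (SE 0.139), Tubb6 by 2.25 (SE 0.148), Hspb1 by 1.42 (SE 0.094) and Basp1 by 0.84 (SE 0.0592). The exception was Nrn1, the neurite growth protein neuritin, which fell by 0.73 on the log2 scale (SE 0.111), with 127, 178 and 231 CPM in injured-side ganglia, against 243, 282 and 304 CPM in opposite-side ganglia.

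Neuropeptides differed in both directions: 10 of 25 rose and 7 fell (covariate 9 and 4, F 5 week side 11 and 8), with a median of 0.15 that was 0.041 without animal 3 and 0.082 without animal 6. Gal, the gene of galanin (chromosome 1, 200650439 to 200655302), measured 104, 203 and 279.6 CPM in injured-side ganglia, against 4.84, 6.65 and 9.03 CPM in opposite-side ganglia (log2 fold change 4.83, SE 0.264, edgeR adjusted p = 2.88e-16). Vgf, a secreted peptide precursor, measured 194, 225 and 296 CPM in injured-side ganglia, against 34.2, 38 and 42.9 CPM in opposite-side ganglia (log2 fold change 2.61, SE 0.135, edgeR adjusted p = 5.34e-17). Adcyap1, the gene of the peptide PACAP, measured 229, 259 and 315 CPM in injured-side ganglia, against 52.7, 60.3 and 69.7 CPM in opposite-side ganglia (log2 fold change 2.15, SE 0.143, edgeR adjusted p = 2.12e-14). These were without overlap, as were peptides that start from very low levels. Ucn, which encodes urocortin, measured 1.32, 3.63 and 7.5 CPM in injured-side ganglia, against 0, 0 and 0.205 CPM in opposite-side ganglia. For Pdyn, the prodynorphin gene, levels were 1.89, 2.84 and 4.27 CPM in injured-side ganglia, against 0.043, 0.205 and 0.398 CPM in opposite-side ganglia. Cck, the cholecystokinin gene, had 2.36, 3.76 and 7.91 CPM in injured-side ganglia, against 0, 0.29 and 0.437 CPM in opposite-side ganglia. Nts, the neurotensin gene, rose by 1.54 (SE 0.267). Other peptides fell, Nmb (neuromedin B) by 0.99, Sst (somatostatin) by 0.83, Penk (proenkephalin) by 0.71 and Scg2 (secretogranin II) by 0.45 on the log2 scale, with Chga (chromogranin A) at -0.71. Of the transmitter genes of peptidergic nociceptors, 2 are given here and were not called. Tac1, the substance P precursor, stood at 0.24 (SE 0.144) and Calcb, a calcitonin gene-related peptide gene, at -0.10 (SE 0.107). Values of Calca, another nociceptor marker gene, are not reported here.

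Because many genes rose together from near 0, their promoters were read for AP-1 sites, the element that Jun and Atf3 family dimers bind, and for the cyclic AMP response element (CRE). The windows are the 250 bases before the annotated transcription start in RefSeq, build GRCr8, and 262 of 371 genes considered have such an entry. AP-1 was searched as TGACTCA and its other strand TGAGTCA, and the CRE as TGACGTCA, which reads the same on both strands; the letters of one do not contain the other. Among the genes named here with a match, 5 that rose are shown, with the motif in capitals, Sprr1a (chr2:180752626-180752875, minus strand), Vtcn1 (chr2:190941974-190942223, plus strand) and Hamp (chr1:95300272-95300521, minus strand) for AP-1 and Ucn (chr6:30957836-30958085, plus strand) and Vgf (chr12:25277021-25277270, minus strand) for the CRE:
Sprr1a: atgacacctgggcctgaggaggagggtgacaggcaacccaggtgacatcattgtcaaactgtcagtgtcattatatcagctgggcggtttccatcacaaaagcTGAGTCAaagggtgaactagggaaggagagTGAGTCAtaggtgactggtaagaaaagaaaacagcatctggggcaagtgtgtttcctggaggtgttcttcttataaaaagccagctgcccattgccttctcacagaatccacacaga
Vtcn1: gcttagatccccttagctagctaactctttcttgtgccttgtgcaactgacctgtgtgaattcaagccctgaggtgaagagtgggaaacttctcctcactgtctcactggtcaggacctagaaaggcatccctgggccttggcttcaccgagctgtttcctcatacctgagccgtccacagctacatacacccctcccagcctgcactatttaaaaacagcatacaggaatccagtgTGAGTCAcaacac
Hamp: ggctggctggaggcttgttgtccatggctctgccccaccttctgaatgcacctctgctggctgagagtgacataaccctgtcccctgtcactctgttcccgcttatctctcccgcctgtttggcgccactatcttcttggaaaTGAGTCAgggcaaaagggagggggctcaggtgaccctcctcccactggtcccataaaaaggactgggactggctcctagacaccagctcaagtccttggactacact
Ucn: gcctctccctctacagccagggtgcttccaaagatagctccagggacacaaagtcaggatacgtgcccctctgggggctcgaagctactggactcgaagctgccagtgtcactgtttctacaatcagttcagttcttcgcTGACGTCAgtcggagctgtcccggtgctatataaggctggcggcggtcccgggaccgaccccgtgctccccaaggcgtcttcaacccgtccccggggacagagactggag
Vgf: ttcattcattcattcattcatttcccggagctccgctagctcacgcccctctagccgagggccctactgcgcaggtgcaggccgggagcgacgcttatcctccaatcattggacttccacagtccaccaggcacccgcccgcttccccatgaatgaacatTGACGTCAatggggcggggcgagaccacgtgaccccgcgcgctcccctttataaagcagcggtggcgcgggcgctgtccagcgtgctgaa
The Sprr1a window holds 2 AP-1 matches, which begin 147 and 117 bases before the start, and the CRE of Vgf begins 90 bases before it. Over all 12682 protein-coding genes tested that have a window, 3.63% held an AP-1 match and 2.75% a CRE. Among the 457 of them that were higher by 2-fold or more, 9.63% held AP-1 and 2.63% a CRE, and among the 152 lower by 2-fold or more 3.95% and 1.97%. The CRE share among the genes that rose was thus near that over all genes. Genes named here that fell hold matches too, among them Pla2g7 for AP-1 and Vamp1, Scg2 and Runx3 for the CRE. A match is a description of these letters in this window and not evidence of binding. Npy, Vip and Gal have a window with neither motif, from which nothing follows.

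Receptors for peptides and amines mostly fell, 20 of 38 lower and 8 higher (covariate 7 and 10, F 5 week side 8 and 20), with a median of -0.42. Beside Adra1a and Oprm1, the serotonin receptors Htr1d, Htr3b and Htr3a fell: Htr1d by 1.27, Htr3b by 1.14 and Htr3a by 0.96 on the log2 scale. Cnr1, the cannabinoid receptor CB1, measured 13.6, 14.4 and 16.7 CPM in injured-side ganglia, against 24.8, 30.4 and 36.2 CPM in opposite-side ganglia (log2 fold change -1.06, SE 0.087, edgeR adjusted p = 9.06e-13). Adra2c fell by 0.85 and Oprd1, the delta opioid receptor, by 1.33 (SE 0.235), with Galr1 at -0.75. Some receptors of the peptides above rose. Cckbr, the cholecystokinin B receptor, measured 9.44, 13.2 and 15.1 CPM in injured-side ganglia, against 0.217, 0.416 and 0.559 CPM in opposite-side ganglia (log2 fold change 4.82, SE 0.235, edgeR adjusted p = 1.48e-18). Npy2r, a receptor of neuropeptide Y, rose by 1.14 (SE 0.13), Galr2, a galanin receptor, by 0.63 (SE 0.104), Cckar by 0.53 (SE 0.111), Sstr4 by 1.68 (SE 0.298), Drd2, a dopamine receptor, by 1.34 (SE 0.147) and Bdkrb2, a bradykinin receptor, by 0.88 (SE 0.0935). Npy1r stood at -0.13 (SE 0.106) and was not called.

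Of 46 potassium channel genes 33 fell and 4 rose (covariate 2 and 28, F 5 week side 5 and 32), with a median of -0.62, the lowest median among the channel and receptor lists. Kcns1, a silent subunit that modifies Kv2 channels in sensory neurons, measured 36.9, 43.2 and 52.9 CPM in injured-side ganglia, against 91.1, 97.9 and 108 CPM in opposite-side ganglia (log2 fold change -1.18, SE 0.073, edgeR adjusted p = 8.68e-16). Kcna2 and Kcna1, the juxtaparanodal Shaker channels of myelinated axons, fell by 1.01 and 0.61 on the log2 scale, with Kcna4 (-1.05) and the auxiliary subunits Kcnab1 (-0.89) and Kcnab2 (-0.60). In the Kv2 group the silent subunit Kcns3 (-1.17) fell beside Kcnb2 and Kcns1. The A-type channel fell with its partners, Kcnd2 by 0.94, Kcnd3 by 0.90, Kcnip4 by 0.80, Dpp6 by 0.75 and Dpp10 by 1.29. Kcnc1, a fast Kv3 channel, also fell, by 0.71. Of the M-current subunits Kcnq5 fell (-0.49), and Kcnq3 fell by 0.61 against its own but stood at 0.090 against the F 5 week opposite side. The background potassium channels Kcnk1 (-0.69) and Kcnk18 (-0.95), the calcium-activated Kcnn2 (-0.89) and the sodium-activated Kcnt2 (-1.20) fell, and Kcna6 (0.22) and Kcnk13 (1.24) rose. Over all genes the covariate left 11% higher and 10.7% lower.

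Of 17 sodium channel genes 12 fell and 1 rose, 2 with the animal as a block (covariate 1 and 7, F 5 week side 3 and 11). Scn1a and Scn8a encode channels prominent in large myelinated neurons, and measured 92.3, 114 and 142 CPM in injured-side ganglia, against 206, 214 and 234 CPM in opposite-side ganglia for Scn1a (log2 fold change -0.90, SE 0.0633, edgeR adjusted p = 1.82e-14) and 182, 216 and 262 CPM in injured-side ganglia, against 376, 392 and 411 CPM in opposite-side ganglia for Scn8a (log2 fold change -0.81, SE 0.0563, edgeR adjusted p = 1.09e-14). The nociceptor channels Scn10a (Nav1.8) and Scn11a (Nav1.9) fell by 0.68 (SE 0.119) and 0.74 (SE 0.141), and Scn9a (Nav1.7) by 0.46 (SE 0.0511). Scn3b, an auxiliary subunit, was the member that rose, with 119.8, 128 and 134 CPM in injured-side ganglia, against 54.6, 62.5 and 73.4 CPM in opposite-side ganglia (log2 fold change 0.99, SE 0.064, edgeR adjusted p = 1.88e-15). The 20 calcium channel genes held 11 falls and 3 rises (covariate 2 and 6, F 5 week side 4 and 10; median -0.18). Cacna2d1, the alpha-2-delta subunit that gabapentin binds (chromosome 4, 18950611 to 19374969), measured 181, 239 and 312 CPM in injured-side ganglia, against 55.9, 61.8 and 70.4 CPM in opposite-side ganglia (log2 fold change 1.96, SE 0.111, edgeR adjusted p = 2.83e-16). Cacnb1 rose by 0.91 (SE 0.0538), whereas Cacna2d3 fell by 0.62, Cacng2 by 0.98, the T-type channel Cacna1h by 0.79 and Rem2, a small GTPase that inhibits calcium channels, by 1.45 on the log2 scale.

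Sensory transduction and pacemaker channels were mixed, 12 of 38 higher and 19 lower (covariate 6 and 16, F 5 week side 9 and 17). Piezo2, the mechanotransduction channel of touch, fell by 0.55 (SE 0.0811), Trpv1, the capsaicin receptor, by 0.47 (SE 0.103), Trpm8, the cold receptor, by 0.32 (SE 0.0786), and Ano3 by 1.10 (SE 0.127). The ATP-gated channels parted: P2rx6 and P2rx5 fell by 1.02 and 0.84, P2rx2 rose by 1.01, and P2rx3, the main subunit of nociceptors, stood at 0.037 (SE 0.073) and was not called. Of the pacemaker channels Hcn2 (-0.48) fell and Hcn3 (0.48) rose. Trpv2 also rose, by 0.43 (SE 0.0564), and Trpm6, a magnesium channel, fell by 1.34. Receptors for GABA and glutamate fell in 15 of 30 and rose in 4 (covariate 4 and 12, F 5 week side 7 and 13), with a median of -0.17 that was -0.082 without animal 4. Gabra5, an extrasynaptic GABA-A subunit, measured 20.8, 30.4 and 33.9 CPM in injured-side ganglia, against 5.25, 5.93 and 6.79 CPM in opposite-side ganglia (log2 fold change 2.24, SE 0.158, edgeR adjusted p = 4.21e-14). Gabrb1 rose by 1.48 (SE 0.17). Other GABA-A subunits fell, Gabrb2 by 0.86 and Gabra2 by 0.54 on the log2 scale. Gria2, an AMPA receptor subunit, fell by 0.90, and Grin2b, an NMDA receptor subunit, rose by 1.14 (SE 0.2).

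Markers of large myelinated and mechanoreceptor neurons fell in 15 of 18 and rose in 2 (covariate 2 and 13, F 5 week side 3 and 15; median -0.61). Nefm, the neurofilament medium chain, measured 4436, 5997 and 7137 CPM in injured-side ganglia, against 9579, 9989 and 11000 CPM in opposite-side ganglia (log2 fold change -0.77, SE 0.0697, edgeR adjusted p = 1.41e-11). Ntrk3, the neurotrophin 3 receptor of proprioceptors, measured 129, 176 and 185 CPM in injured-side ganglia, against 296, 316 and 334 CPM in opposite-side ganglia (log2 fold change -0.93, SE 0.0552, edgeR adjusted p = 1.92e-16). Their sides did not overlap, and the summed level of all 18 markers ran between 16100 and 23730 CPM on the injured side, against 30050 and 32440 CPM on the opposite side. Pvalb, a calcium buffer of proprioceptors, fell by 0.57 (SE 0.0666), and Spp1 (0.59) and Calb1 (1.20) were the members that rose. Nociceptor markers fell in 16 of 29 and rose in 5 (covariate 4 and 4, F 5 week side 7 and 14; median -0.33), with summed levels of 6228 to 7999 CPM on the injured and 5999 to 6418 CPM on the opposite side. Mrgprd, which marks nonpeptidergic nociceptors, fell by 1.02 (SE 0.22), and Gfra2 by 0.70. Gfra1, the receptor of glial cell line-derived neurotrophic factor, measured 619, 717 and 798 CPM in injured-side ganglia, against 241, 256 and 269.8 CPM in opposite-side ganglia (log2 fold change 1.5, SE 0.0546, edgeR adjusted p = 5.11e-22). Gfra3 rose by 0.83 (SE 0.0812).

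Transcription factors of sensory neuron identity fell in 18 of 25 and rose in 2 (covariate 2 and 10, F 5 week side 3 and 20; median -0.38). Etv1, which shapes proprioceptors, fell by 0.71 (SE 0.0546), Esrrg by 0.94, Mafa by 1.08, Isl1 by 0.41, Runx3 by 0.26 and Runx1 by 0.23 on the log2 scale. Hopx was among the factors that rose (0.76), and Pou4f1 stood at 0.040 (SE 0.0378) and was not called. Genes of the synaptic vesicle and its release fell in 19 of 30 and rose in 3, 5 without animal 6 (covariate 1 and 17, F 5 week side 4 and 22). Vamp1, a vesicle SNARE, measured 557, 623 and 762 CPM in injured-side ganglia, against 1040, 1090 and 1131 CPM in opposite-side ganglia (log2 fold change -0.74, SE 0.0607, edgeR adjusted p = 8.89e-13). Snap25, its membrane partner, fell by 0.63 (SE 0.0567) and Pclo, a scaffold of the release site, by 0.97 (SE 0.0627). Among RNA-binding proteins of neurons Rbfox3, known as the marker NeuN, fell by 0.62 (SE 0.0832).

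Neurotrophic factors and their receptors rose in 15 of 33 and fell in 9 (covariate 9 and 3, F 5 week side 16 and 9). Alkal2, a ligand of the receptor ALK, measured 7.27, 10.5 and 17.1 CPM in injured-side ganglia, against 1.16, 1.48 and 1.68 CPM in opposite-side ganglia (log2 fold change 3.00, SE 0.246, edgeR adjusted p = 2.16e-12). Bdnf, brain-derived neurotrophic factor, measured 37.8, 45.5 and 65.7 CPM in injured-side ganglia, against 12.9, 17.3 and 18.1 CPM in opposite-side ganglia (log2 fold change 1.59, SE 0.138, edgeR adjusted p = 1.02e-11). Fgf2 rose by 2.22 (SE 0.23), Clcf1, a ciliary neurotrophic factor relative, by 1.42 (SE 0.211), and Lif, leukemia inhibitory factor, by 1.02 (SE 0.304), the last with under 1 CPM on the opposite side. Nrg1, the axonal signal to Schwann cells, fell by 0.69 (SE 0.0483).

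Macrophage genes rose in 32 of 40 and none fell (covariate 23 and 0, F 5 week side 34 and 0), with a median of 1.13. Their summed level ran between 685.6 and 1130 CPM on the injured side, against 377 and 504 CPM on the opposite side, without overlap, and no marker was at 0 in either group. C1qa, a subunit of the complement starter C1q that macrophages make, measured 17.8, 25.3 and 43.6 CPM in injured-side ganglia, against 7.61, 8.28 and 10.8 CPM in opposite-side ganglia (log2 fold change 1.62, SE 0.213, edgeR adjusted p = 9.77e-08). Csf1r, the receptor on which macrophages depend, measured 37.1, 49.1 and 71.8 CPM in injured-side ganglia, against 15.8, 18.3 and 21.7 CPM in opposite-side ganglia (log2 fold change 1.39, SE 0.195, edgeR adjusted p = 3.79e-07). Cx3cr1, the fractalkine receptor, rose by 1.81 (SE 0.254), Lyz2 by 1.63 (SE 0.268), Ms4a6a by 2.5 (SE 0.256) and Clec7a, the beta-glucan receptor, by 2.24 (SE 0.234). Cd163, a marker of resident perivascular macrophages, stood at 0.22 (SE 0.34) and was not called. Of 12 genes of antigen presentation by MHC class II 12 rose (covariate 9 and 0, F 5 week side 12 and 0), with a median of 1.46. Cd74, the invariant chain, measured 156, 229 and 304 CPM in injured-side ganglia, against 55.1, 73.2 and 119.5 CPM in opposite-side ganglia (log2 fold change 1.57, SE 0.299, edgeR adjusted p = 5.36e-05). Ciita, the master regulator of the class, rose by 1.05 (SE 0.212). Summed, the class took 368 to 675 CPM on the injured and 135 to 262 CPM on the opposite side. Near-identical RT1 genes share reads, so values of single RT1 genes are uncertain.

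Complement genes rose in 11 of 23 and fell in 2 (covariate 8 and 1, F 5 week side 15 and 3). C4a measured 82.8, 131 and 168 CPM in injured-side ganglia, against 34.1, 45.9 and 74.9 CPM in opposite-side ganglia (log2 fold change 1.41, SE 0.252, edgeR adjusted p = 2.03e-05). C2 rose by 1.07 (SE 0.185), and Cd59, which shields cells from complement, by 0.56 (SE 0.0483); Csmd1, a complement inhibitor of neurons, fell by 0.56. Cytokine and chemokine genes rose in 17 of 33, and none fell (covariate 9 and 0, F 5 week side 17 and 1), though 3 fell without animal 5, 1 without animal 1 and 2 with the animal as a block. Csf1, the growth factor of macrophages that injured sensory neurons make, measured 74.8, 90.2 and 146 CPM in injured-side ganglia, against 16.4, 17.4 and 20.6 CPM in opposite-side ganglia (log2 fold change 2.41, SE 0.145, edgeR adjusted p = 1.44e-15). Ccl2, a monocyte chemokine, measured 23.6, 31.9 and 39.3 CPM in injured-side ganglia, against 8.19, 10.5 and 13.4 CPM in opposite-side ganglia (log2 fold change 1.64, SE 0.178, edgeR adjusted p = 1.69e-09). Il6 measured 1.78, 2.18 and 4.28 CPM in injured-side ganglia, against 0, 0 and 0.13 CPM in opposite-side ganglia. Il1a had 195 counts in all on the injured against 1 count on the opposite side. Relative to the unscaled group totals this was a ratio of 209 (95% exact Clopper-Pearson interval 37.15 to 8315). Il1r1, the interleukin 1 receptor, rose by 1.69 (SE 0.104). Of 35 T, NK and B lymphocyte markers 20 passed the filter and were tested, and 7 of them rose and 1 fell (covariate 4 and 0, F 5 week side 7 and 1). None fell without animal 2, 3, 6 or 7 or with the animal as a block. The median was 0.082, and ran between -0.058 without animal 6 and 0.31 without animal 5. Among those that rose were Gzmb (1.29, 4.92 and 7.46 CPM in injured-side ganglia, against 0.0463, 0.194 and 0.358 CPM in opposite-side ganglia), a protease of killer cells, and Cd28 and Cd4, which rose by 1.40 and 0.99 on the log2 scale. Of neutrophil and mast cell markers 1 of 19 rose (covariate 1 and 0, F 5 week side 2 and 0; 1 fell without animal 3), namely Hdc, which makes histamine, by 2.10 (SE 0.256), and their summed level overlapped (69.2 to 115.5 CPM on the injured and 73.4 to 112 CPM on the opposite side). Of erythrocyte markers 1 of 19 rose (covariate 0 and 1, F 5 week side 2 and 0), Bpgm by 0.28 (SE 0.0529), and the summed level again overlapped (254 to 711 CPM on the injured and 326 to 729 CPM on the opposite side). In each of these 2 lists 1 marker was at 0 on the injured and 1 on the opposite side. Interferon response genes were called in 3 of 37, 2 higher and 1 lower (covariate 0 and 0, F 5 week side 2 and 1), but 7 rose and 0 fell without animal 2, and 1 rose when any other animal was left out.

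Cell cycle genes rose in 17 of 40 and none fell, but this count rested on few libraries: 6 rose without animal 6, and 11 without animal 3 (covariate 2 and 0, F 5 week side 31 and 1). Mcm5, a subunit of the replicative helicase, measured 6.91, 14.3 and 16.1 CPM in injured-side ganglia, against 2.56, 3.53 and 4.19 CPM in opposite-side ganglia (log2 fold change 1.91, SE 0.212, edgeR adjusted p = 2.15e-09). Cdc25c, a phosphatase of mitotic entry, rose by 0.75 (SE 0.0619) and Kif20a, a kinesin of cytokinesis, by 0.91 (SE 0.21). Mki67, the proliferation marker, stood at 0.29 (SE 0.323) and was not called. Of 20 genes of repair Schwann cells 15 rose and 2 fell (covariate 12 and 0, F 5 week side 14 and 2). Cdkn1a, a cell cycle inhibitor, rose by 2.54 (SE 0.176), Ucn2 by 3.83 (SE 0.391), Runx2 by 1.28 (SE 0.172), Mcam by 0.51 (SE 0.0392) and Sox2 by 0.33 (SE 0.078). Satellite glia genes rose in 7 of 26 and fell in 5, 3 without animal 2 (covariate 4 and 1, F 5 week side 9 and 4), near the 23.9% higher and 21.7% lower over all genes, with summed levels of 10390 to 11790 CPM on the injured and 9670 to 12180 CPM on the opposite side. Gfap, the glial filament that marks reactive satellite glia, measured 40.1, 54.2 and 74.8 CPM in injured-side ganglia, against 9.39, 12.1 and 17.4 CPM in opposite-side ganglia (log2 fold change 2.13, SE 0.228, edgeR adjusted p = 1.72e-09). Panx1, a large-pore channel, rose by 1.00 (SE 0.0897) and Vim by 0.40 (SE 0.0835), whereas Sparcl1 fell by 0.48 and Bcan, brevican, by 0.58. Kcnj10, the potassium channel Kir4.1 of satellite glia, stood at -0.11 (SE 0.054) and was not called, though it fell by 0.12 with the animal as a block, and was called then and without animal 1.

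Myelin genes fell in 16 of 26 and none rose against their own opposite side (covariate 0 and 1, F 5 week side 7 and 2; 1 rose without animal 2 or 5). Pmp2, a lipid carrier of myelin, measured 169, 207 and 233 CPM in injured-side ganglia, against 268, 394 and 558 CPM in opposite-side ganglia (log2 fold change -1.04, SE 0.231, edgeR adjusted p = 3.61e-04). Pmp22 fell by 0.59, Mbp by 0.50 and Mag by 0.72 on the log2 scale. Against the F 5 week opposite side the signs turned for Pmp22 (0.27), Mbp (0.27) and Mag (0.035). The opposite side was also the more variable one: summed, the list took 17740 to 21340 CPM on the injured and 20780 to 37260 CPM on the opposite side. Nfasc, a neurofascin that axons also express, fell in every one of these fits (-0.35, -0.38 with the covariate and -0.23 against the F 5 week opposite side).

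Collagen, fibroblast and matrix genes fell in 9 of 41, near the 21.7% lower over all genes, and rose in 4 against their own opposite side (covariate 4 and 0, F 5 week side 28 and 2). Some genes of matrix turnover were higher. Mmp19, a matrix metalloproteinase, measured 18.1, 25.4 and 28.5 CPM in injured-side ganglia, against 5.6, 7.35 and 8.12 CPM in opposite-side ganglia (log2 fold change 1.76, SE 0.115, edgeR adjusted p = 2.50e-15). Timp1, an inhibitor of such enzymes, rose by 0.99 (SE 0.11), Col16a1 by 1.07 (SE 0.083), and Mmp3 measured 1.83, 2.81 and 3.54 CPM in injured-side ganglia, against 0, 0.0926 and 0.358 CPM in opposite-side ganglia. Col1a1, the main fibrillar collagen, stood at -0.37 (SE 0.204) and was not called, and rose by 0.88 against the F 5 week opposite side. Endothelial and pericyte genes rose in 5 of 36 and fell in 4 (covariate 2 and 0, F 5 week side 7 and 1), while 1 fell without animal 2, and 3 rose without animal 3, 4 or 6. Pecam1 stood at -0.11 (SE 0.103) and Cldn5 at -0.047 (SE 0.0785), neither called. Skeletal muscle and adipocyte genes fell in 10 of 19 and rose in 2 (covariate 1 and 3, F 5 week side 2 and 1), but 3 fell without animal 2 and 4 with the animal as a block. Animal 2 had 179 CPM of these genes on the opposite side, where the median was 76.1 CPM, against 52.5 to 73.0 CPM in all injured-side ganglia. Whether tissue around the ganglion was carried into that library was not tested.

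Genes of metabolism and protein synthesis differed by small amounts. Genes of oxidative phosphorylation fell in 34 of 48 and none rose (covariate 0 and 19, F 5 week side 1 and 34), with a median of -0.16. Sdha, a subunit of succinate dehydrogenase, measured 152, 166 and 182 CPM in injured-side ganglia, against 204, 221 and 228 CPM in opposite-side ganglia (log2 fold change -0.38, SE 0.0341, edgeR adjusted p = 7.48e-12). Atp5f1a, the alpha subunit of ATP synthase, fell by 0.29 (SE 0.0289). Cytosolic ribosomal protein genes rose in 47 of 54 and none fell (covariate 22 and 0, F 5 week side 48 and 0), with a median of 0.19. With the trend in exon length removed 34 rose and none fell, with a median of 0.11. Rpl15 rose by 0.39 (SE 0.0508) and Rps3 by 0.35 (SE 0.0371). Genes of the ATF4 stress response and the aminoacyl-tRNA synthetases rose in 17 of 38 and fell in 4 (covariate 9 and 2, F 5 week side 15 and 7). Tars1 rose by 0.44 (SE 0.0641), Mthfd2, an enzyme of mitochondrial folate metabolism, by 0.50 (SE 0.0925) and Slc7a5, a leucine transporter, by 0.38 (SE 0.0717), whereas Iars1 fell by 0.28 and Atf4 itself stood at 0.079 (SE 0.0446) and was not called. Of 33 genes of cholesterol and fatty acid synthesis 8 rose, near the 23.9% over all genes, or 5 without animal 2 or 3, and 13 fell (covariate 4 and 1, F 5 week side 6 and 6), so that falls outnumbered rises in neither bracketed fit. Insig1, a brake on sterol synthesis, fell by 0.26. Splicing genes rose in 20 of 45 and fell in 7 (covariate 4 and 5, F 5 week side 24 and 4), an excess of rises that the covariate fit did not hold. Srsf2 rose by 0.23 (SE 0.0267), and the muscleblind proteins Mbnl2 and Mbnl1 fell by 0.52 and 0.46. Among clock genes 4 of 18 rose, near the 23.9% over all genes, and 2 fell (covariate 3 and 0, F 5 week side 8 and 1). With the animal as a block 7 rose and 3 fell, and 1 fell without animal 2 or 7. Nfil3, a repressor of the clock, rose by 2.19 (SE 0.192).

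**Figure D3:**
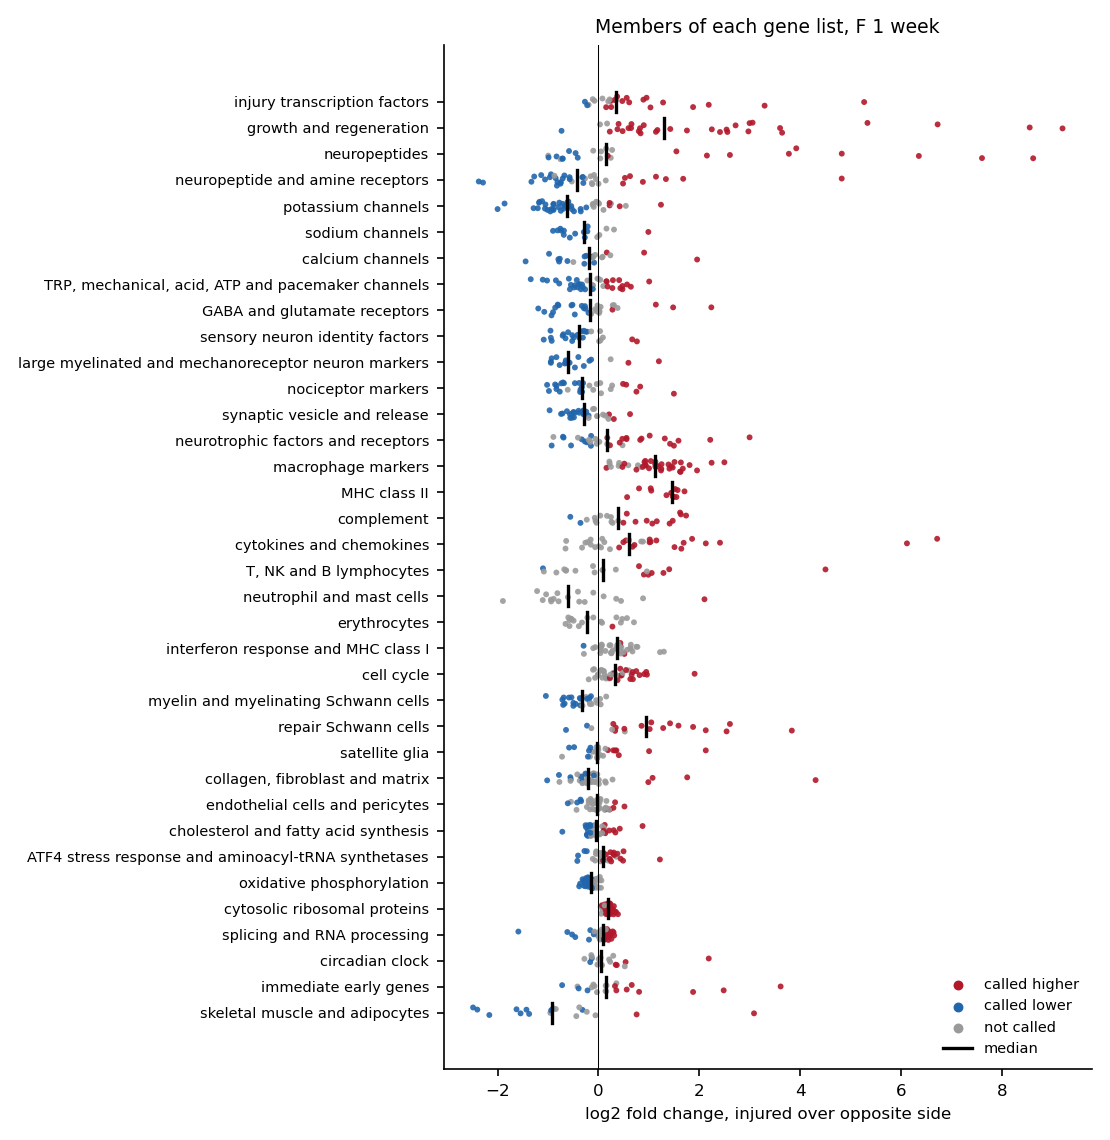
Log2 fold changes, injured over opposite side (horizontal axis), of the tested members of 36 gene lists (rows). Each point is a gene, red where called higher, blue where called lower and grey where not called, and the black bar is the median of the list. Growth, macrophage and MHC class II genes lie right of 0 and potassium channel and large-neuron genes mostly left of it.

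**Figure D4:**
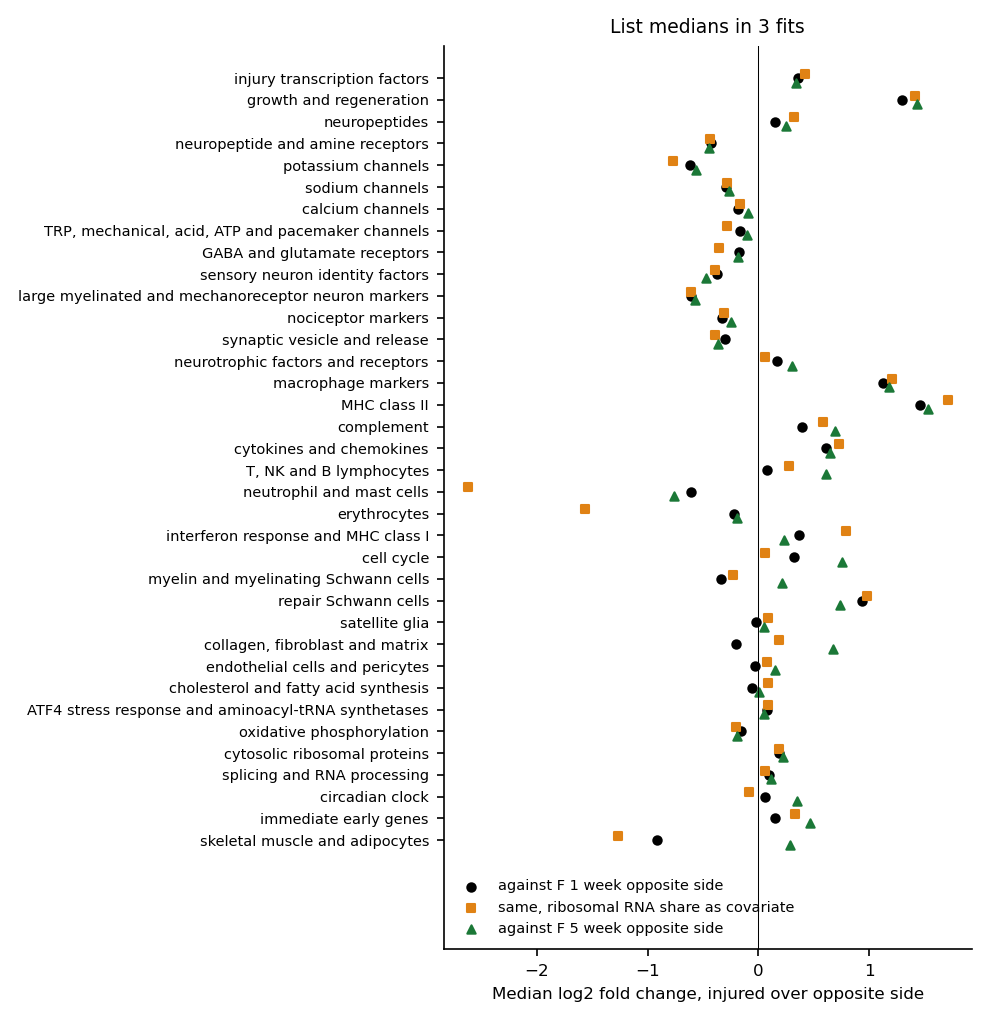
Median log2 fold change of each list (horizontal axis) in 3 fits: injured side against the F 1 week opposite side (circles), the same with the ribosomal RNA share as covariate (squares), and against the F 5 week opposite side (triangles). Growth, macrophage and potassium channel medians stay on one side of 0, and the matrix median is negative in the first fit and positive in the other 2.

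How far the 1 week response differed from the 5 week response was tested as the difference of the 2 log2 fold changes, which share no library. At 5 weeks, 7593 genes differed between the sides (41.9%). The difference between the weeks was called for 2452 of 18135 genes (13.5%), 1064 with the larger value at 1 week (5.87%) and 1388 with the larger value at 5 weeks (7.65%). Of the 1388, 830 were lower on the injured side at 1 week, 830 were higher on it at 5 weeks, and 300 were called in opposite directions at the 2 times. Oprm1 stood at -2.29 at 1 week and 1.47 at 5 weeks, a difference of -3.76 (SE 0.234, edgeR adjusted p = 3.46e-15). Ro60 stood at -1.59 and 2.07, Kcnb2 at -1.86 and 0.77, Hecw1, a ubiquitin ligase of neurons, at -1.20 and 0.36, Unc80, a subunit of the sodium leak channel complex, at -1.15 and 0.47, and Gucy1a2, a nitric oxide-sensitive cyclase subunit, at -1.38 and 0.89, in each pair 1 week before 5 weeks. Among the 46 potassium channel genes 13 had the lower value at 1 week and 1 the higher.

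In the other direction, Tph2, the serotonin-synthesizing tryptophan hydroxylase, measured 39.7, 48 and 59 CPM in injured-side ganglia, against 5.42, 8.93 and 11.2 CPM in opposite-side ganglia at 1 week (log2 fold change 2.44, SE 0.117, edgeR adjusted p = 1.46e-18) and had 1.03 at 5 weeks. Itga7, a laminin receptor, rose by 0.80 at 1 week and 0.26 at 5 weeks. Leng8 (0.52 and -0.32), Pcgf1 (0.55 and -0.27), Pabpn1 (0.36 and -0.13) and Zcchc7 (0.42 and -0.17) rose at 1 week and fell at 5 weeks; Pabpn1 and Zcchc7 act in nuclear RNA processing. Values at the 2 times, 1 week first, were 5.27 and 4.58 for Atf3 and 7.61 and 8.74 for Npy. They were 8.62 and 8.32 for Vip and -2.37 and -2.5 for Adra1a. No difference was called for any of these, but other injury genes did differ. Among the 32 growth and regeneration genes 7 had the larger value at 1 week and 1 at 5 weeks, against 5.87% and 7.65% of all genes. The value of Arg1 was larger at 1 week by 1.24 (edgeR adjusted p = 0.0145) and that of Hspb1 by 0.55 (edgeR adjusted p = 0.00462). With the covariate the difference of Hspb1 was still called and that of Arg1 was not.

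The genes with the larger value at 5 weeks were long. Their median exonic length was 7.15 kb, against 3.48 kb over the 13584 protein-coding genes tested with a mean log2 CPM of at least 1, and 3.13 kb for the genes with the larger value at 1 week. Genes lower on the injured side at 1 week had a median of 4.37 kb, and genes higher on it 3.24 kb. In a fit holding the covariate 676 differences between weeks were called, 178 with the larger value at 1 week and 498 with the larger value at 5 weeks. In the comparison with males at 1 week below, genes with the larger value in males were long too, with a median of 7.63 kb. Those with the larger value in females had 4.25 kb. Between the 2 female opposite sides, genes higher at 1 week had a median of 5.23 kb and genes lower at 1 week 4.045 kb. Ribosomal RNA shares there averaged 2.25% at 1 week and 2.11% at 5 weeks. On the injured and the opposite side the mean shares were 0.970% and 2.25% in females at 1 week. They were 2.05% and 2.11% in females at 5 weeks and 5.10% on both sides in males at 1 week. Share and length thus moved together in both differences. The part of share and length in them was not tested apart.

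**Figure D5:**
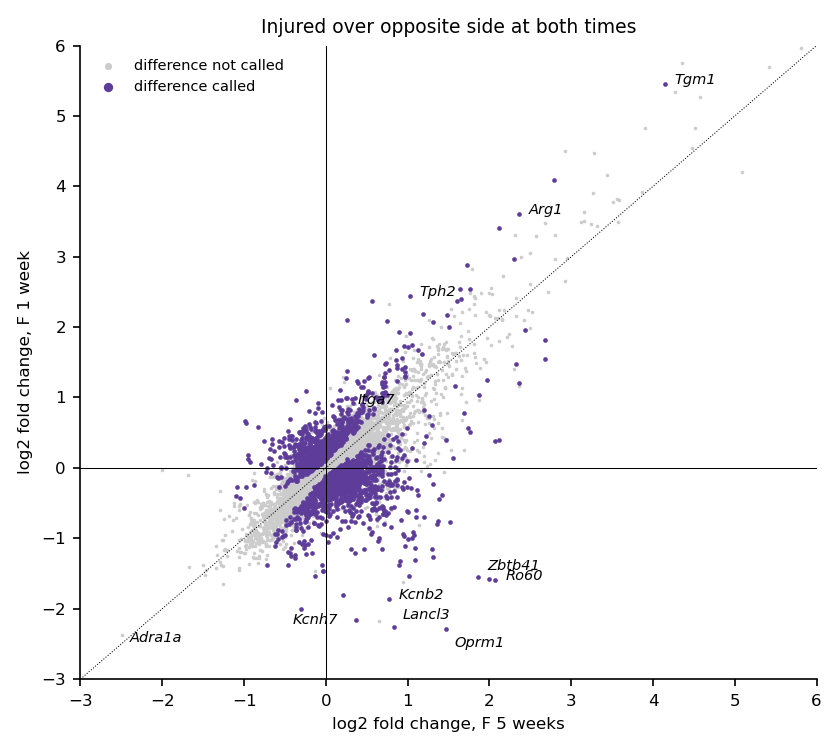
Log2 fold change, injured over opposite side, at 1 week (vertical axis) and 5 weeks (horizontal axis) in females for genes with a mean log2 CPM of at least 1, with the line of equal values dotted. Purple points are genes whose difference between weeks was called. Oprm1, Kcnb2, Lancl3, Zbtb41 and Ro60 lie below 0 at 1 week and above 0 at 5 weeks, while Adra1a lies near the dotted line.

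The same comparison of sides in males at 1 week was set beside that of females. The difference between the female and the male log2 fold change was called for 218 of 19223 genes (1.13%). Of these, 83 had the larger value in females (0.432%) and 135 the larger value in males (0.702%). With the replicate number as a block 559 were called. The labels of the male 1 week libraries carry no animal code, so for them that pairing is assumed. Sex and count table cannot be told apart here, since the male 1 week libraries were counted in another table. Of the 135, 126 were lower on the injured side in females, and their median was -0.55 in females and -0.028 in males. Oprm1 stood at -2.29 in females and -0.52 in males, Kcnb2 at -1.86 and -0.65, Kcnh7 at -2.0 and -1.32, Arfgef3 at -1.14 and 0.030, and Ro60 at -1.59 and 0.25, females first. Of these, the difference of Kcnh7 was no longer called with the covariate (edgeR adjusted p = 0.143). No difference was called for Atf3 (5.27 in females and 4.80 in males), Vip (8.62 and 7.67) or Kcns1 (-1.18 and -1.24). In males at 1 week the ribosomal RNA share averaged 5.10% ± 0.643 on the injured and 5.10% ± 0.615 on the opposite side (SD, n = 7 each), and with that share as covariate 53 differences were called, 2 with the larger value in females and 51 with the larger value in males.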

How the data were processed

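Messenger RNA of ganglia was sequenced after poly-A selection with a stranded kit, single-end, per the labels' protocols. The authors deposited an estimated count for every gene and library, in which reads shared between genes enter as fractions, as seen from the values. Software named in the submitters' processing notes was STAR 2.7.2b, featureCounts 1.6.4, cutadapt 2.5 and bcl2fastq 2.20.0.422, with the build mRatBN7.2. Whether counting used strand is not given in the sources used here. Estimated counts were rounded to whole numbers and tested with edgeR 4.0.16 (R 4.3.3; TMM scaling, filterByExpr at 10 counts, robust quasi-likelihood) over the 38 libraries of one table, with Benjamini-Hochberg adjustment at 0.05. The comparison with males used both tables. DESeq2 1.42.0, limma 3.58.1, other scaling and filters, the ribosomal RNA share as covariate, the F 5 week opposite side, and each animal left out were alternatives.

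In females replicate numbers pair the sides, because both sides carry the same animal code. Deviations of same-numbered libraries correlated at 0.0713 to 0.409 (median 0.324), against -0.0358 for other pairs. P-values of the main fit rest on the spread within groups over all 38 libraries of the table tested, not on these animals alone. Beside the female libraries of both times, that table holds males at 24 h (6 injured-side and 6 opposite-side libraries). The main fit does not use the pairing of sides. With the 14 libraries alone 7946 of 17266 genes were called.

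Named genes were label checks, the 15 largest rises and falls among called genes that have a symbol, moved one way in 7 of 7 animals and averaged a log2 CPM of 1 or more, the 4 smallest p of each of 36 lists with further family members, the 8 smallest p per direction of each difference, and genes that moved most against the F 5 week opposite side. Members and lists were chosen with earlier results of these data known. Some genes that the rule names are not reported here. The test was tried on simulated data.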

Additional observations from a re-analysis of the deposited data

Results flagged for a closer look

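Among groups of 7 libraries, a single library stood far from its neighbours for a few measures; with the gap test used, chance does this in about 1 in 20 groups, and 10 of 146 tested groups did so. Kcnb2 was highest in the opposite-side ganglion of animal 7 (47.5 CPM). Pla2g7 was highest in the opposite-side ganglion of animal 6 (70.0 CPM). C1qa was highest in the injured-side ganglion of animal 6 (43.6 CPM). Csf1 was highest in the injured-side ganglion of animal 6 (146 CPM). Il6 was highest in the opposite-side ganglion of animal 3 (0.13 CPM). Ucn was highest in the opposite-side ganglion of animal 4 (0.205 CPM). Summed macrophage markers were highest on the opposite side of animal 1 (504 CPM). Summed lymphocyte markers were highest on that of animal 5 (44.8 CPM). Summed collagen and matrix genes were lowest on that of animal 6 (7712 CPM). Summed muscle and adipocyte genes were highest on that of animal 2 (179 CPM).

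The side difference itself differed between groups of animals, by a test of the difference (edgeR, adjusted p under 0.05). Between F 1 week and F 5 weeks (F 1 week minus F 5 weeks, log2) it was positive for Tgm1 (1.31), Leng8 (0.84), Tph2 (1.42), Itga7 (0.54), Pcgf1 (0.82), Pabpn1 (0.50) and Zcchc7 (0.59). It was negative for Oprm1 (-3.76), Lancl3 (-3.10), Zfp804b (-2.54), Kcnh7 (-1.70), Kcnb2 (-2.63), Ro60 (-3.66), Zbtb41 (-3.40), Abca6 (-1.40), Plcxd3 (-2.55), Rn28s (-1.43), Hecw1 (-1.56), Gucy1a2 (-2.27) and Unc80 (-1.61). Between females and males at 1 week (F minus M, log2) it was positive for Leng8 (0.49), Pcgf1 (0.49) and Pabpn1 (0.30), and negative for Oprm1 (-1.78), Lancl3 (-1.51), Zfp804b (-1.09), Kcnh7 (-0.69), Kcnb2 (-1.22), Ro60 (-1.85), Zbtb41 (-1.65), Plcxd3 (-1.08), Rn28s (-1.44), Gucy1a2 (-0.92) and Arfgef3 (-1.18). Sex and count table cannot be told apart in the last comparison. In the edgeR fit with the ribosomal RNA share as covariate some of the listed differences were no longer called (in brackets, log2 difference and edgeR adjusted p in that fit). Between the weeks they were Tgm1 (1.46, 0.152) and Rn28s (-0.10, 0.352). Between females and males they were Zfp804b (-1.49, 0.0878), Kcnh7 (-0.72, 0.143), Rn28s (-0.11, 0.619), Leng8 (0.32, 0.361), Pcgf1 (0.33, 0.482) and Pabpn1 (0.22, 0.406).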

How the results depend on the processing

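Total calls were 7351 to 8383 of the genes tested under scaling, DESeq2, limma-voom, filters, the 14 libraries alone, the exon length trend and leaving out each animal, with 7351 to 7944 when leaving out animals. With the animal as a replicate block 8307 were called. With the ribosomal RNA share as covariate 3932 were called (1992 higher and 1940 lower), and with block and covariate together 77 (76 higher and 1 lower); since the shares do not overlap, side and share cannot be told apart there. The difference from F 5 weeks then held 676 calls (178 higher and 498 lower). The difference from males held 53 with the covariate (2 higher and 51 lower), 559 with the replicate block (252 higher and 307 lower) and 128 higher under DESeq2; leaving out each animal gave 43 to 88 higher (43 without animal 2, 54 without animal 4, 47 without animal 5). The ribosomal RNA share differed by -1.28 percentage points (-1.36 to -1.21 without single animals; exact sign-flip test over the 7 paired animals, p = 0.0156).

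Of the 8284 genes called, 6401 (77.3%) kept call and sign in every fit that left out an animal, 5611 (67.7%) also under the alternatives other than those with the ribosomal RNA share or the F 5 week opposite side, and 74 (0.893%) under all of them. The named genes were chosen with their values known and are steadier than that: 225 of 225 called ones kept their call without each animal, but 23 under all alternatives. Of the 218 differences from males 118 (54.1%) and of the 2452 from F 5 weeks 1665 (67.9%) were kept without each animal. Signs turned for these named genes (log2 fold change under the alternative; the cause was not tested). Against the F 5 week opposite side: Ro60 0.14, Zbtb41 0.14, Mag 0.035, Cldn5 0.021, Col1a1 0.88, Egr1 0.33, Kcnq3 0.090, Mbp 0.27, P2rx3 -0.11, Pecam1 0.17, Pmp22 0.27 and Pou4f1 -0.10. With the setting ribosomal RNA share as covariate: Cd163 -0.29, Cldn5 0.057, Egr1 0.33, Kcnj10 0.029 and Mki67 -0.62. With the setting replicate block with ribosomal RNA share as covariate: Cldn5 0.14, Kcnj10 0.14, Npy1r 0.18, Oprd1 0.43, P2rx3 -0.072, Pecam1 0.12 and Penk 0.066. Without replicate 2: Cldn5 0.0041. Cldn5 ran between -0.089 and 0.0041 without single animals.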

Other observations

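Some levels varied between animals in the same way on both sides. The genes below were chosen after their values were seen, from the 12820 protein-coding genes ordered by how far the log2 levels of the 2 sides vary together over the 7 animals; values are given in the order of animals 1 to 7. Fam111a, a nuclear protease in humans (chromosome 1, 209640865 to 209656551 of mRatBN7.2), had 1.37, 1.62, 19, 41.1, 20.1, 18.3 and 15.9 CPM on the injured side, against 0.919, 1.84, 19.4, 40.9, 20.6, 14.7 and 19.2 CPM on the opposite side. Animals 1 and 2 were low on both sides. Serpinb1b, an inhibitor of neutrophil proteases (chromosome 17, 31320135 to 31329151), had 209.5, 13.9, 226, 211, 179.7, 188 and 225 CPM on the injured side, against 211, 14.3, 248, 234, 217, 274 and 254 CPM on the opposite side, so that animal 2 was low on both sides. Serpina3n (chromosome 6, 123323632 to 123331166), which was higher on the injured side in every animal, had 42.7, 383, 35.8, 256, 61.9, 647 and 244 CPM on the injured side, against 0.677, 5.94, 0.347, 4.47, 0.43, 6.16 and 3.62 CPM on the opposite side, and animals that were low on one side were low on the other. Zbtb16, a zinc finger factor, had 6.95, 7.51, 13.4, 45.6, 14.5, 17.4 and 38.9 CPM on the injured side, against 9.58, 10.6, 17.3, 60.4, 15.3, 22.7 and 44.3 CPM on the opposite side, with animals 4 and 7 highest on both sides. RT1-CE16, an MHC class I gene, had 10.5, 54.3, 89.2, 9.83, 57.6, 13.9 and 57.5 CPM on the injured side, against 8.23, 49.2, 72.1, 8.7, 44.7, 9.26 and 44.8 CPM on the opposite side; reads shared with other RT1 genes make its value uncertain.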
